A study of Mus musculus with 12 samples.

Results

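The nuclear pore and nuclear transport genes are the genes whose products build the channel through the nuclear envelope and carry proteins and RNA across it. They were chosen by symbol alone: Nup, Ipo, Xpo, Tnpo, Nxt or Nxf followed by a digit, any Kpna or Kpnb, and Ran, Rangap1, Ranbp1, Rcc1, Cse1l and Xpot. The rule itself used no measured value, though it was set with earlier results of these data known. It gave 53 genes of 18193 with a probe set of exactly 1 symbol. These 53 genes had 131 probe sets, and 36 of them had more than 1, and each gene took its value from the probe set that was brightest on average in log2 signal.

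Expression was measured in stem cells of mouse bone marrow sorted by flow cytometry into CD49- cells (3 samples) and CD49+ cells (3 samples), CD49 being a name shared by integrin alpha subunits. Each sample was lysed at 0 h after the sort, held about 30 cells with an estimated purity of 97.03%, and was amplified by PCR into cDNA that was hybridised to the Affymetrix designs MOE430A and MOE430B, 12 arrays in all. Titles carry 2 prefixes: MZ1484 holds 1 CD49- sample (CD49- 1) and 1 CD49+ sample (CD49+ 1), and MZ1468 holds 2 of each (CD49- 2 and 3, CD49+ 2 and 3). The prefix is called the submission here. The labels name no treatment beyond the sort. The sources used here give neither the alpha subunit nor the strain, age or genotype of the mice. Nor do they say whether samples came from separate animals or sorts, so p-values measure only sample-to-sample spread, some of which may be technical.

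The arrays differed between submissions on some of these measures. On MOE430A, 39.5% to 46.9% of probe sets lay above the background bound (the highest signal among the bacterial control probe sets of an array) in MZ1484 and 49.7% to 61.1% in MZ1468. The Actb 3' to 5' signal ratio, which rises as transcripts are shortened, was 2.63 to 7.48 in MZ1484 and 8.83 to 19.8 in MZ1468 on MOE430A. Neither measure separated the submissions on MOE430B, where 18.8% to 25.5% and 16.5% to 28.6% of probe sets lay above the bound and the Actb ratio was 3.26 to 11.7 and 6.52 to 14.7. The Gapdh ratio overlapped on both designs. Each submission was scanned on a day of its own, so that scan day and submission cannot be told apart. Of 11 measured haematopoietic stem cell markers, 11 lay above the bound on at least 1 array of each submission, 9 of them on both MZ1484 arrays and 5 on all 4 MZ1468 arrays. Of 10 measured granulocyte and monocyte markers, 6 lay above it on at least 1 MZ1484 array and 9 on at least 1 MZ1468 array, and of 6 megakaryocyte and platelet markers 5 and 6 did. Of 6 measured erythroid markers, 4 lay above it on none.

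In an interphase cell, importins bind cargo in the cytoplasm and release it in the nucleus when they meet RanGTP, and exportins bind their cargo together with RanGTP and release it outside. RCC1 on chromatin loads Ran with GTP, and RanGAP1 with RanBP1 in the cytoplasm drives its hydrolysis, which keeps the gradient that gives transport its direction. Bulk mRNA leaves by another route, through the NXF1-NXT1 heterodimer. The same Ran system and several nucleoporins also serve spindle and envelope assembly in mitosis.

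Most of the pathway was measurable in these small samples. The number of the 53 genes above the background bound was 37, 43 and 43 in CD49- 1, 2 and 3 and 27, 38 and 43 in CD49+ 1, 2 and 3. The lowest count belonged to the MZ1484 CD49+ sample, in which 41.7% of all genes lay above the bound, against 46.6% to 59.1% in the other samples. On all 6 arrays 23 genes were above the bound (52.3% of the tested members, against 40.9% of all tested genes). At the probe set standing for the gene, 7 were at or under it on every array. All 7 were represented on MOE430B, whose bound was 844 to 1466, against 78.0 to 149 on MOE430A. A gene was tested when its mean log2 level reached the median of its array design, which 44 members did, 31 on MOE430A and 13 on MOE430B. The 9 members not tested at the probe set standing for them were Nup98, Nup155, Nup160, Xpo4, Tnpo2, Nxf2, Nxf3, Nxf7 and Nxt2. A further MOE430A probe set each of Nup155 and Nup160 was tested and lay above the bound on 4 arrays, those of MZ1468. Their fitted MZ1484 minus MZ1468 log2 differences were -3.07 and -3.34 (limma, adjusted p = 0.056 and 0.071). MOE430A probe sets of Xpo4 and Tnpo2 were above the bound on some arrays but were not tested. Nup98 is a nucleoporin found on both faces of the pore. Its MOE430B probe set, which stands for it, read 79, 44.5 and 156 in the CD49- samples and 74, 41 and 31 in the CD49+ samples. All were under the bound of their arrays, so this probe set gives no level. Its MOE430A probe set, not tested, was above the bound on 2 arrays, with 388 in CD49+ 1 the highest signal.

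CD49+ and CD49- cells did not differ at an adjusted p of 0.05 in any nuclear transport gene. None of the 44 tested members passed an adjusted p of 0.05 in limma with Benjamini-Hochberg adjustment, where 0% of all 11889 tested genes did. At an unadjusted p under 0.05 there were 0 members against 2.88% of all genes (2.04% lower and 0.841% higher). This fit held no submission term, so differences between the submissions stayed in its residual spread and widened the SE of genes that differed between them. With the submission as a block, 0 members were called. The median difference, CD49+ minus CD49-, was -0.05 on the log2 scale over the tested members and -0.03 over all tested genes, and 23 members were lower and 21 higher. With 1 sample left out, the median over the members ranged from -0.77 (without CD49- 1) to 0.19 (without CD49+ 1). At the probe sets standing for the genes, the CD49+ and CD49- signals failed to overlap for Tnpo3, lower in CD49+ (4.35% of all genes were lower without overlap). The same held for Nup62, higher in CD49+ (3.73% of all genes). Other tested probe sets of both genes overlapped.

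The members with the smallest p among those lower in CD49+ were importins and 1 exportin. Ipo11, known in human cells as an importer of ubiquitin-conjugating enzymes, had signals of 159511, 9787 and 26246 in CD49- 1, 2 and 3 and 13809, 518 and 3727 in CD49+ 1, 2 and 3. Its groups overlapped, and its log2 difference was -3.40 ± 1.52 (SE, adjusted p = 0.9989). Its MOE430A probe set gave -0.74. Tnpo3, the importer of SR splicing factors, read 7857, 2201 and 2389 against 101, 1079.7 and 1404, a difference of -2.57 ± 1.27 (SE, adjusted p = 0.9998). Both CD49- and CD49+ extremes of Tnpo3 were MZ1484 samples: within MZ1484 the difference was -5.95 and within MZ1468 -0.88. The other tested probe set of Tnpo3, with signals of 68.8 to 306, gave 0.47.

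The importin alpha adaptors, which link cargo with a classical import signal to importin beta, gave 2 further examples. Kpna4 signals were 9297, 5148 and 4473 in CD49- cells and 1036, 2286 and 5642 in CD49+ cells, with overlap. The difference was -1.32 ± 0.83 (SE, adjusted p = 0.9998), made up of -3.13 within MZ1484 and -0.41 within MZ1468. Kpna3 read 2762, 1286 and 1534 and 38.7, 1724 and 2076, where the CD49+ 1 array was the only one under the bound. Its difference was -1.52 ± 1.52 (SE, adjusted p = 0.9998), and within MZ1468 it was 0.42, of the opposite sign. Xpo7, an exportin of broad specificity, read 21523, 9482 and 9304 and 5164, 10468 and 10541, a difference of -0.58 ± 0.49 (SE, adjusted p = 0.9998). The 4 MZ1468 samples of Xpo7 were nearly level (SD 0.09 on the log2 scale), and its difference within them was 0.16 against -2.05 within MZ1484.

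Among members higher in CD49+, Nup62, a nucleoporin of the central channel, had the smallest p. Its signals were 97519.8, 117918 and 112481 in CD49- and 236067, 143397 and 123101 in CD49+ cells, and its difference was 0.56 ± 0.36 (SE, adjusted p = 0.9989). The CD49+ 1 sample stood highest, and the difference within MZ1468 was 0.21. Tested MOE430A probe sets of Nup62 gave 1.60, 1.25 and -1.03, each with overlap. Ipo13, a carrier that works in both directions, read 1160.2, 1996 and 2082 and 919, 10752 and 3315, with overlap and a difference of 0.90 ± 0.94 (SE, adjusted p = 0.9989). Ran, the GTPase itself, differed by 0.12 ± 0.18 (SE, adjusted p = 0.9998), and its 6 samples lay between 19775 and 27912. Within MZ1468 the Ran difference was 0.01. Nup85 of the outer ring differed by 0.98 ± 1.59 (SE, adjusted p = 0.9998), again with overlap, and by 1.33 within MZ1468.

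Ipo8, an importin beta family member, was the single member called in the test of whether the CD49 difference itself differed between the submissions, and that call depended on the settings. In MZ1484 its signal was 8.75 in the CD49- sample, under the bound, and 6899 in the CD49+ sample. In MZ1468 it was 2358 and 2234 in CD49- cells and 627 and 1357 in CD49+ cells, so the order was reversed. Against the bound, CD49+ was at least 71.8-fold higher than CD49- in MZ1484, with 1 sample on each side. The fitted log2 difference was 7.60 within MZ1484 and -1.29 within MZ1468, and the interaction was 8.89 ± 1.35 (SE, adjusted p = 0.0467, limma), which rests on 1 sample per group in MZ1484 and, with a signal under the bound, on the pseudocount. It missed the threshold without the filter on low signals (adjusted p = 0.0819, 0 of 53 members called) and with signals under the bound raised to it (7.10, adjusted p = 0.0667). Over all genes 1.35% passed this test (0.824% with a negative and 0.521% with a positive sign), against 1 of 44 members (2.27%). At an unadjusted p under 0.05, the counts were 9 members (20.5%) and 18.1% of genes, 6 members with a negative and 3 with a positive sign, where 9.06% of genes had the negative and 9.06% the positive sign. The pooled Ipo8 difference was 1.67 ± 1.89 (SE, adjusted p = 0.9998). Of the tested members, 21 (47.7%) had CD49 differences of opposite sign in the 2 submissions, near the 50.2% of all genes.

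Most member calls came from the comparison of the submissions, although the 2 MZ1484 samples were not close to each other. On MOE430A the array of CD49- 1 correlated at 0.602 with CD49+ 1, 0.608 with CD49- 2 and 0.61 with CD49- 3. Among MZ1468 arrays the correlation was 0.745 to 0.884. On MOE430B the MZ1484 pair gave 0.496 and MZ1468 pairs 0.652 to 0.816. The CD49 difference was larger in size within MZ1484 than within MZ1468 for 79.5% of tested members and 69.2% of all tested genes. In MZ1484, Rangap1, Ranbp1, Kpna2, Cse1l, Nxt1 and Nup210 were lower than in MZ1468, and Nxf1 was higher, in a limma fit with the CD49 group as a covariate (2 against 4 samples). These 7 calls were 15.9% of the 44 tested members, where 4.04% of all tested genes were called. Lower calls made 13.6% of members against 3.34% of genes, and higher calls 2.27% against 0.698%. All 7 were measured on MOE430A, where 22.6% of 31 members and 7.53% of all genes were called, while MOE430B gave 0 of 13 members and 0.412% of genes. Because a gene could pass the level filter through MZ1468 alone, the fit was also made without the filter, which left Rangap1, Ranbp1, Kpna2, Nxt1 and Nup210 called (5 of 53 members, 9.43%, against 1.22% of 18193 genes). Every called member had the same sign within the CD49- and within the CD49+ samples. That is no separate support, because the fit that chose these members used the same samples. The calls depended on single samples: without CD49- 2, CD49- 3 or CD49+ 3, 0 members and 0 genes passed, with smallest adjusted p among members of 0.1105, 0.1189 and 0.06465. Fewer cells of a type and less RNA per cell cannot be told apart in such samples.

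At an unadjusted p under 0.05, 14 members were lower in MZ1484 (31.8%, against 15.5% of genes) and 2 were higher, Ipo11 and Nxf1 (4.55%, against 7.17%). Signals of 17 members lay wholly below MZ1468 (38.6%, against 19.8%) and those of 3 wholly above (6.82%, against 13.6%). The median MZ1484 minus MZ1468 difference was -1.50 over the tested members and -0.21 over all tested genes. Without the filter it was -0.79 over all 53 members and -0.02 over all genes. Centring each array on its median moved these values to -0.17 for the tested members and 0.36 for all genes, and turned the calls over all genes from 397 lower and 83 higher into 236 lower and 1141 higher. Differences are therefore relative to the authors' scaling. The shares and medians given here also mix both array designs. On MOE430A lay 31 of the 44 tested members, but 6059 of the 11889 tested genes. Over all tested probe sets the median difference was -0.43 on MOE430A and -0.06 on MOE430B. The part of this mix in the gap between members and all genes was not tested.

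**Figure D1:**
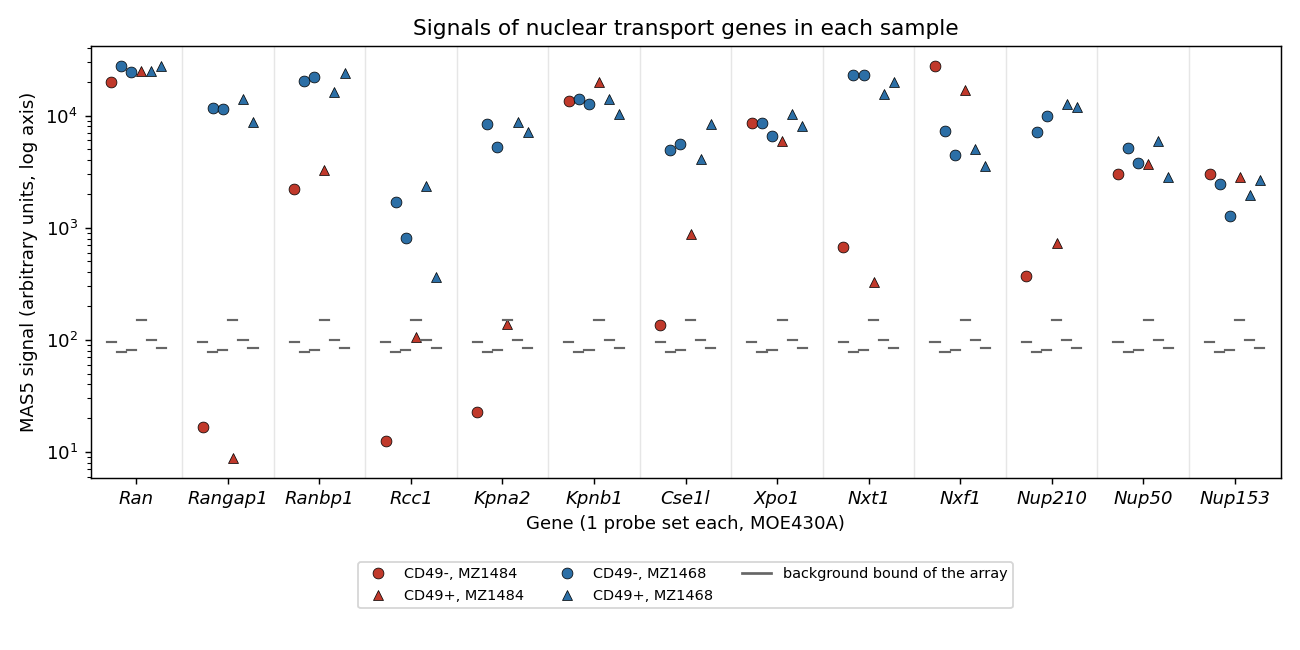
MAS5 signals (log axis) of 13 transport genes in the 6 samples, circles for CD49- and triangles for CD49+, red for MZ1484 and blue for MZ1468, with a grey tick at each array's background bound. Rangap1 and Kpna2 lie under the bound in both MZ1484 samples and above it in the 4 MZ1468 samples, whereas the Ran signals lie between 19775 and 27912 in all 6; levels of different genes are not comparable.

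Of the Ran cycle genes, Rangap1 and Ranbp1 were called lower in MZ1484, and Rcc1 and Ran were not called. Rangap1, which encodes the GTPase-activating protein of Ran, read 16.6 and 8.84 in the MZ1484 CD49- and CD49+ samples, both under the bound. In MZ1468 it read 11684 and 11445 in CD49- and 14127 and 8714 in CD49+ cells. It was at least 94.8-fold lower in MZ1484, with a fitted log2 difference of -8.17 ± 0.71 (SE, adjusted p = 0.0212). Its other tested probe set, on MOE430B, was under the bound on all 6 arrays and carries no level.

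Ranbp1, which helps RanGAP1 act on Ran, read 2222 and 3240.3 in MZ1484, given as here in the order CD49-, CD49+ throughout, against 20434 and 21939.9 (CD49-) and 16219 and 23905 (CD49+) in MZ1468. The submissions did not overlap, all 6 arrays were above the bound, and the difference was -2.92 ± 0.32 (SE, adjusted p = 0.0212). Rcc1, the exchange factor that makes RanGTP, read 12.6 and 105 in MZ1484, under the bound on both arrays, and 1708 and 805 (CD49-) and 2339.7 and 364 (CD49+) in MZ1468. It was at least 8.70-fold lower in MZ1484, but the MZ1468 samples spread widely and the fitted difference of -3.89 ± 1.03 (SE, adjusted p = 0.0754) missed the threshold.

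Ran itself read 19775 and 25025 in MZ1484 and 27912 and 24213 (CD49-) and 25089.9 and 27414 (CD49+) in MZ1468, a difference of -0.23 ± 0.15 (SE, adjusted p = 0.366) with overlap of the submissions. Its sign depended on the scaling, since quantile normalization gave -0.51 (adjusted p = 0.0352) and median centring 1.16 (adjusted p = 0.0164). Its 5 tested probe sets ranged from -0.29 to 0.73 with none called.

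Of the 6 importin alpha genes, only Kpna2 was called. Kpna2, whose protein is an importin alpha known to be abundant in dividing cells, read 22.7 and 139.5 in MZ1484, under the bound on both arrays, and 8323 and 5291 (CD49-) and 8716 and 7195 (CD49+) in MZ1468. It was at least 60.7-fold lower in MZ1484, with a fitted difference of -6.32 ± 0.77 (SE, adjusted p = 0.0217). The other members of the family ranged from -2.17 (Kpna6) to 0.30 (Kpna7). Kpna1 read 2323 and 5275 in MZ1484 and 7956 and 6224 (CD49-) and 1235 and 4968 (CD49+) in MZ1468. Its difference was -0.25 ± 0.88 (SE, adjusted p = 0.873), well within the spread of its samples.

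The importin beta carriers gave no call among 10 tested genes at the probe sets standing for them. Kpnb1, the carrier that importin alpha hands its cargo to, read 13480.2 and 19742 in MZ1484 and 13997 and 12736 (CD49-) and 14136 and 10406 (CD49+) in MZ1468, a difference of 0.36 ± 0.27 (SE, adjusted p = 0.434). The submissions overlapped at this probe set, although it was called higher in MZ1484 after median centring. Tnpo1, the transportin of many RNA-binding proteins, read 1041 and 368 against 17166 and 17545 (CD49-) and 10026 and 13762 (CD49+), a difference of -4.22 ± 0.64 (SE, adjusted p = 0.0686) that missed the threshold although the submissions did not overlap. Ipo11 went the other way with 159511 and 13809 in MZ1484 and 9787 and 26246 (CD49-) and 518 and 3727 (CD49+) in MZ1468. Its difference was 3.22 ± 0.96 (SE, adjusted p = 0.211), and its MOE430A probe set gave -0.79. Ipo9, an importer of core histones, read 33107 and 678 against 23544 and 30642 (CD49-) and 92097 and 31978 (CD49+), and only its CD49+ 1 array was under the bound.

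Among 6 tested exportins, Cse1l was the only one called at the probe set standing for the gene. It encodes the exportin that returns importin alpha to the cytoplasm, and it read 135 and 883 in MZ1484 against 4978 and 5569 (CD49-) and 4109 and 8406 (CD49+) in MZ1468. All arrays were above the bound and the difference was -3.87 ± 0.83 (SE, adjusted p = 0.0466). Of 16 alternative settings, 8 kept Cse1l past the threshold. Xpo1, the main exportin for proteins with a leucine-rich signal, read 8555 and 5888 against 8492 and 6625 (CD49-) and 10419 and 8127 (CD49+), a difference of -0.23 ± 0.38 (SE, adjusted p = 0.732) that became 1.16 under median centring (adjusted p = 0.1105). Xpot, the tRNA exportin, read 3329 and 63.1 against 35096 and 59336 (CD49-) and 34034 and 60059 (CD49+), and its difference of -5.76 ± 1.08 (SE, adjusted p = 0.0968) missed the threshold. Xpo7 differed by 0.09 ± 0.52 (SE, adjusted p = 0.929).

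The 2 partners of the mRNA exporter were called in opposite directions. Nxt1, the small subunit that stabilises NXF1, read 673 and 329.8 in MZ1484 against 22820.3 and 22928 (CD49-) and 15497 and 19862 (CD49+) in MZ1468, a difference of -5.33 ± 0.42 (SE, adjusted p = 0.0212). Nxf1, the large subunit that binds mRNA and the pore, read 27655 and 16845 in MZ1484 and 7228 and 4438 (CD49-) and 5070.3 and 3575 (CD49+) in MZ1468, a difference of 2.13 ± 0.38 (SE, adjusted p = 0.0315). Neither gene overlapped between the submissions, and all 6 arrays were above the bound for both. The Nxf1 call was lost in 7 of 16 alternative settings, among them without either MZ1484 sample (CD49- 1 or CD49+ 1), and the MOE430B probe set of Nxf1 gave -0.30 (adjusted p = 0.885).

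Among the nucleoporins only Nup210 was called at the probe set standing for the gene. Nup210, a membrane-spanning nucleoporin that varies between cell types, read 371 and 732 in MZ1484 against 7075 and 9989.9 (CD49-) and 12724 and 11928 (CD49+) in MZ1468, a difference of -4.21 ± 0.53 (SE, adjusted p = 0.0217). In the outer ring, the Y-shaped complex that coats the pore, all 5 tested genes had negative differences, from -3.62 (Nup85) to -1.53 (Nup107), with 3 at an unadjusted p under 0.05 and 0 called, where 56.4% of all tested genes had a negative difference and 15.5% were lower at that p. Nup85 read 183 and 228 in MZ1484 against 1045 and 2976 (CD49-) and 4848 and 4119 (CD49+) in MZ1468, without overlap (adjusted p = 0.0543). The other tested probe set of Nup85, under the bound on both MZ1484 arrays, was called at least 18.7-fold lower (adjusted p = 0.0317, limma). Nup43 of the same complex read 84.8 and 889 against 4996 and 3949 (CD49-) and 623 and 5836 (CD49+), with overlap.

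The inner ring, which anchors the channel nucleoporins, had 3 tested genes and no call at the probe sets standing for them. Nup93 read 75.4 and 101 in MZ1484, under the bound on both arrays, and 1725 and 1253 (CD49-) and 1720.4 and 302 (CD49+) in MZ1468, at least 8.62-fold lower, with a fitted difference of -3.22 ± 0.94 (SE, adjusted p = 0.0945). Nup205 read 1364 and 1053 in MZ1484 and 3069.6 and 1202 (CD49-) and 1517 and 1465 (CD49+) in MZ1468, a difference of -0.46 ± 0.54 (SE, adjusted p = 0.746) at its representative probe set. On the cytoplasmic face, Nup214, which binds exporting cargo complexes, read 16990.4 and 1485 against 33591 and 24251 (CD49-) and 64173 and 9425 (CD49+). CD49+ 1 was the lowest of these samples, and the difference was -2.34 ± 1.13 (SE, adjusted p = 0.41).

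No channel or basket gene was called at its representative probe set. Nup62 differed by 0.29 ± 0.32 (SE, adjusted p = 0.726) and turned to -0.31 under quantile normalization. Nup50, a basket-associated nucleoporin that binds importin alpha, read 3005 and 3686 in MZ1484 and 5102 and 3736 (CD49-) and 5926 and 2815 (CD49+) in MZ1468, a difference of -0.34 ± 0.58 (SE, adjusted p = 0.735). Nup153, the basket anchor, read 2993 and 2857 against 2452 and 1267 (CD49-) and 1952 and 2652 (CD49+), with both MZ1484 values on top and a difference of 0.54 ± 0.69 (SE, adjusted p = 0.647). Nup210l, a paralogue of Nup210, read 2494 and 1617 against 914 and 1259.8 (CD49-) and 1222 and 854 (CD49+), a difference of 0.86 ± 0.44 (SE, adjusted p = 0.44).

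**Figure D2:**
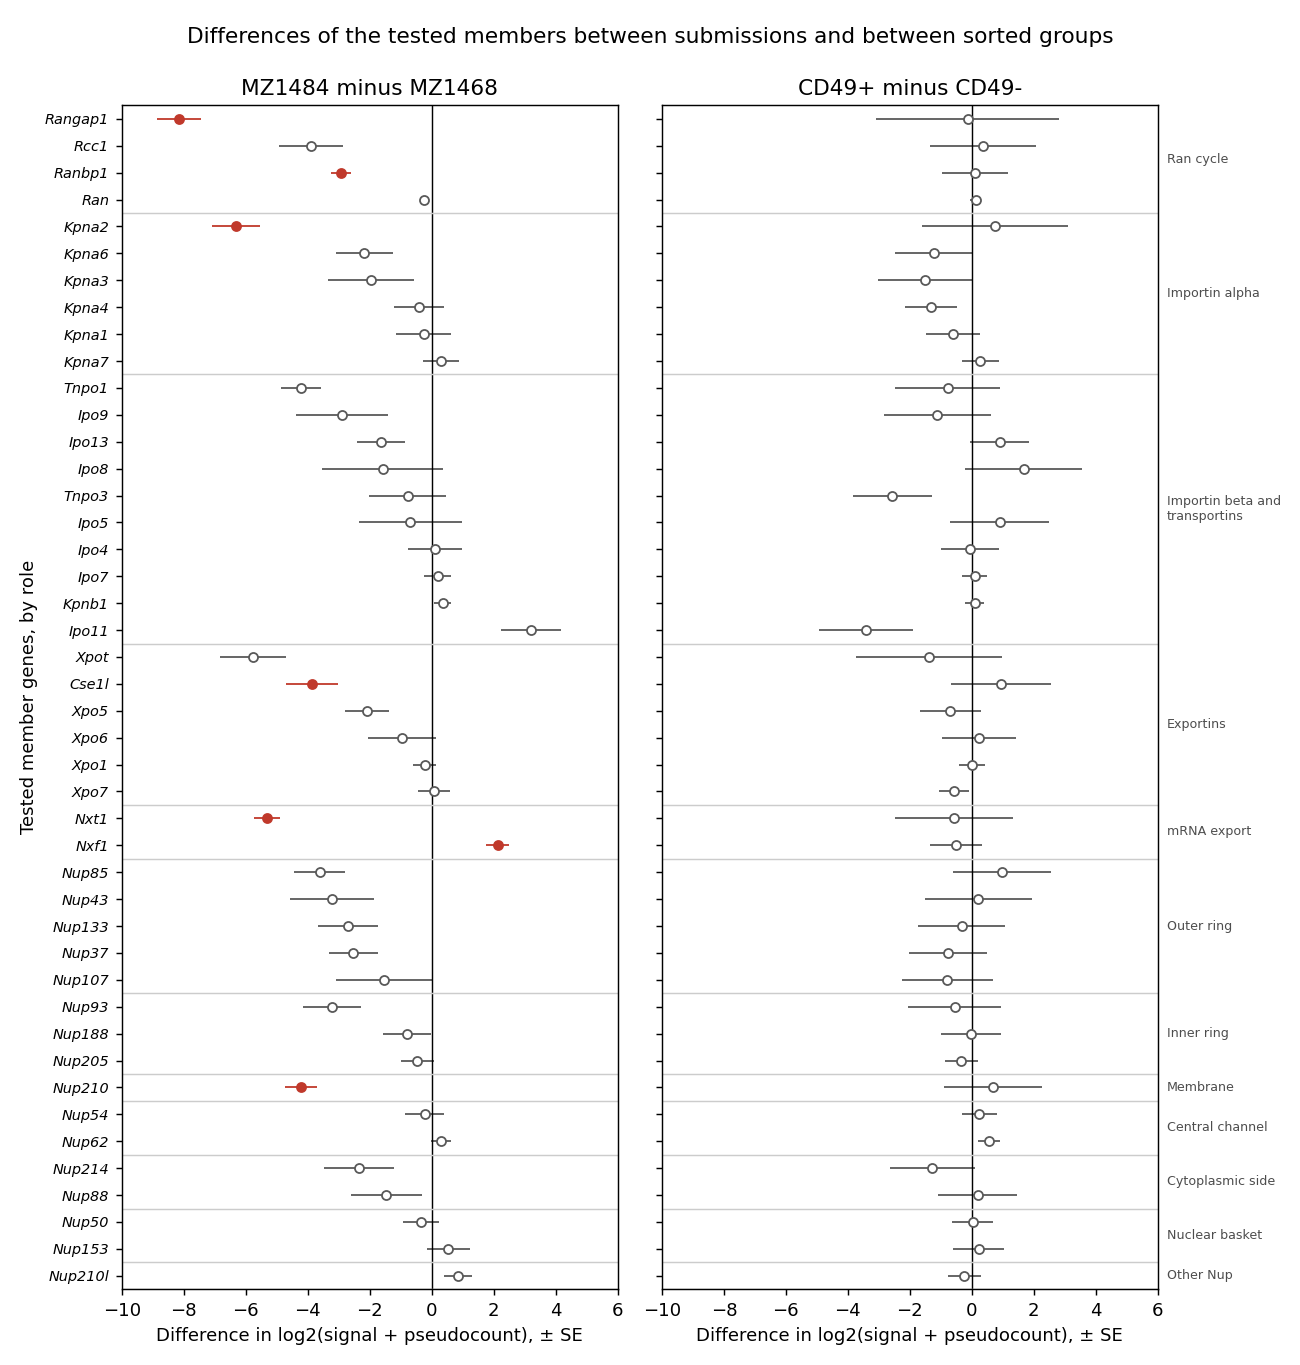
Log2 differences with moderated SE (horizontal bars) of the 44 tested members, grouped by role, MZ1484 minus MZ1468 on the left and CD49+ minus CD49- on the right; filled red points passed an adjusted p of 0.05. The left panel holds 6 lower and 1 higher calls and 34 negative differences, and the right panel holds 0 calls and 23 negative differences.

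Rangap1, Rcc1, Kpna2 and Nup93 were above the bound on all 4 MZ1468 arrays and on neither MZ1484 array. That was 9.09% of tested members, against 4.79% of tested genes. No member showed the reverse, where 1.11% of genes did. The level filter passes a gene dim on the MZ1484 arrays more readily than one dim on the 4 MZ1468 arrays. The 2 directions therefore cannot be set against each other, and no count was made without the filter. The median SD over the 4 MZ1468 samples was 0.50 on the log2 scale for tested members and 0.66 for all tested genes. Xpo7 (0.09), Ran (0.10) and Nup62 (0.15) had the smallest SD, and Nup107 (2.34) and Ipo11 (2.27) the largest.

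Promoter sequences are shown for members that were lower together in MZ1484 (Ranbp1, Nxt1, Nup210 and Kpna2) and for Ran, which was not called. The promoter of Rangap1, also called lower, held none of the motifs below and is not shown. The sequences are the 250 bases before the first listed start of each gene in RefSeq (GRCm38.p6), 5' to 3' on the gene's strand; the array files name no build. Of the 53 members 43 had an entry, and Cse1l had none. Capitals mark matches to 4 motifs searched on both strands: the CCAAT box (CCAAT), the cell cycle homology region (TTTGAA), the E2F words TTTCCCGC, TTTGGCGC, TTTCGCGC and TTTGCCGC, and the E-box CACGTG. No motif contains another, though neighbouring matches can share letters.
Ranbp1 (chr16:18248695-18248944, minus strand): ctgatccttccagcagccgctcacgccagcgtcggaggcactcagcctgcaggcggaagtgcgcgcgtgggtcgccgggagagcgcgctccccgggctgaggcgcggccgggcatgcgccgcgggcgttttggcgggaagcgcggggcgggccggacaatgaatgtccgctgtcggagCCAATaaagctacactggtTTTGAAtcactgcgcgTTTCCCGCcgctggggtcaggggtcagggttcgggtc
Nxt1 (chr2:148672365-148672614, plus strand): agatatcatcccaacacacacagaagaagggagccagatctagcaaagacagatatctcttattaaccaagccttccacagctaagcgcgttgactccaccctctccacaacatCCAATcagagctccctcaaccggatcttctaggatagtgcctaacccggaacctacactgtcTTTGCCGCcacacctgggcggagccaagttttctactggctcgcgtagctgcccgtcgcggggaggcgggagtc
Nup210 (chr6:91116827-91117076, minus strand): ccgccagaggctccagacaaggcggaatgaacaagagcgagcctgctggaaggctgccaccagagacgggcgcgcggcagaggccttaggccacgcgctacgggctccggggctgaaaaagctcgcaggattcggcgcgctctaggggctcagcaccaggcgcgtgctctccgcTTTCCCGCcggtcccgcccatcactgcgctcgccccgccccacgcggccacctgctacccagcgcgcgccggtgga
Kpna2 (chr11:106999526-106999775, minus strand): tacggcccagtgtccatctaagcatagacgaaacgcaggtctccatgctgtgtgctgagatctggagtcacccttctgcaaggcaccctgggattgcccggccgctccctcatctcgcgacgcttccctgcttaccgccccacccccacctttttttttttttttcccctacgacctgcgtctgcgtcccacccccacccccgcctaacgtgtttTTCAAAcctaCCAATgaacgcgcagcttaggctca
Ran (chr5:129019906-129020155, plus strand): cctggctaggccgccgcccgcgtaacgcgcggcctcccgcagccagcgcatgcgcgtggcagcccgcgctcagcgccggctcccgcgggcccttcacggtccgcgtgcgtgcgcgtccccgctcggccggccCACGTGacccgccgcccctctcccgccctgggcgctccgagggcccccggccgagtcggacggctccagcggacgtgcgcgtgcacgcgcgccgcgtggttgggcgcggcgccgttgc

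The Ranbp1 promoter held a CCAAT box 72 bases, a TTTGAA 53 bases and an E2F word 37 bases before the start. Kpna2 held TTTGAA on the opposite strand 35 bases and CCAAT 25 bases before it. E2F words also lay in the promoters of Nxt1 (74 bases before the start) and Nup210 (76 bases before it), while Ran held only the E-box, 118 bases before its start. Over the 5 lower members with an entry, 3 held an E2F word, against 0 of the 31 other tested members and 1.91% of 27025 genes. CCAAT was in 3 of the 5, in 13 of the 31 and in 34.5% of genes. TTTGAA was in 2, in 5 and in 16.3%, and the E-box was in 0, in 6 and in 6.05%. The motifs were chosen after the promoters of Ranbp1, Nxt1, Nup210, Kpna2 and Ran, among others, had been read, so these shares describe these windows, carry no test and say nothing about the factors.

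Probe sets of the same gene did not always move together. Of 26 members with at least 2 tested probe sets, 10 had MZ1484 minus MZ1468 differences of both signs. Over all 92 tested member probe sets, 12 were called lower and 1 higher, in 13 genes, which adds Kpnb1, Nup153, Nup205, Nup85, Tnpo1 and Xpot to the 7 genes above. On MOE430A 10 of 67 member probe sets were lower and 1 higher, where 6.26% and 1.16% of all 11313 were, and on MOE430B 2 of 25 were lower and 0 higher, where 0.302% and 0.0977% of all 11256 were. For Nup153, a probe set on MOE430B read 34.4 and 41.9 in MZ1484 and 9660 and 5529 in CD49- and 15008 and 19951 in CD49+ cells of MZ1468. Both MZ1484 values were under the bound, so it was at least 11.2-fold lower there (adjusted p = 0.044, limma), whereas the representative probe set gave 0.54. For Nup205, a second probe set on MOE430B, under the bound on both MZ1484 arrays, was at least 2.61-fold lower (adjusted p = 0.044), against a log2 difference of -0.46 at the representative one. For Kpnb1, another MOE430A probe set gave a fitted difference of -5.07 ± 0.85 (adjusted p = 0.0291) with 1 MZ1484 array under the bound, and the mean over its tested probe sets was -2.0003 (adjusted p = 0.0491).

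**Figure D3:**
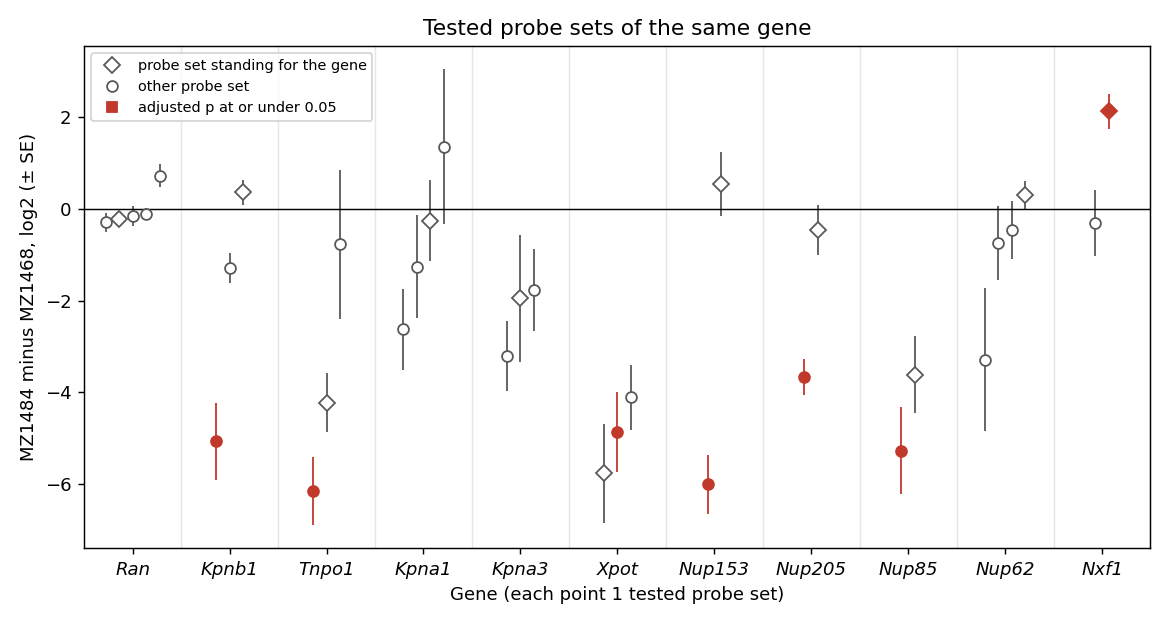
MZ1484 minus MZ1468 log2 difference with moderated SE (vertical bars) for each tested probe set of 11 transport genes, diamonds for the probe set that stands for the gene and circles for the others, filled red where the adjusted p was at or under 0.05. The 5 tested probe sets of Ran lie between -0.29 and 0.73, while those of Nup153 lie at -6.00, where both MZ1484 arrays were under the bound, and at 0.54.

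Other genes of the pathway, from a list of pore, carrier and mRNA export genes that the symbol rule leaves out, were read from the same fit. Of 31 tested, 27 had negative and 4 positive differences, and 3 were called lower in MZ1484 and 0 higher at an adjusted p of 0.05, where 3.34% and 0.698% of all tested genes were. The median difference was -1.21, against -0.21 over all tested genes. They were Aaas, which encodes a nucleoporin of the cytoplasmic face (-6.49, adjusted p = 0.0217, under the bound on 1 MZ1484 array), Ncbp1, the large cap-binding subunit for RNA export (-5.08, adjusted p = 0.0338, also under it on 1), and Eny2, a TREX-2 subunit (-3.03, adjusted p = 0.0217). For CD49 0 of the 31 were called.

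Of 24 tested proliferation genes, 10 were called lower in MZ1484 and 0 higher, where 3.34% and 0.698% of all tested genes were. Their median difference was -2.74, against -0.21 over all tested genes. Of the 24, 14 lay above the bound on at least 1 MZ1484 array and 24 on at least 1 MZ1468 array, and their summed signal was 56211 to 62925 in MZ1484 and 187116 to 302014 in MZ1468. These sums add probe sets of both designs, and Mcm5, on MOE430B, alone read 57593 to 73724 in MZ1468. Differences were negative for 23 of the 24 and positive for 1, from -7.66 (Mcm5) to 0.11 (Mcm3). Top2a (at least 66.2-fold lower), Ccnb2 (at least 59.6-fold) and Birc5 (at least 59.6-fold), which serve mitosis and chromosome separation, were among the 10 and were under the bound on both MZ1484 arrays. Haematopoietic stem cell markers had a median of 1.00 with 0 of 10 called, and their summed signal was 87841 to 118688 in MZ1484 and 23502 to 39712 in MZ1468. Mecom, Hlf and Cd34 together made 67.3% (CD49- 1) and 89.2% (CD49+ 1) of the MZ1484 sums, which add probe sets of both designs. Cd34 added little to the first, with 351 in CD49- 1 and 21734 in CD49+ 1, against 4280 to 10646 in MZ1468. Granulocyte and monocyte markers had a median of 1.76 with 0 of 5 called and sums of 36770 to 40833 and 8282 to 16119. The part of these genes, and of the Actb ratio and the share of probe sets above the bound, in the differences of the transport genes was not tested.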

How the data were processed

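The deposited table of each design holds a linear intensity signal for every probe set. The authors used MAS5 to make it, per the submitters' processing notes, whose version, scaling target and detection calls the sources used here do not give. Signals were not scaled further. They were put on the log2 scale after adding the 25th percentile of the design's signals (27.0 on MOE430A, 139.8 on MOE430B), which understates differences of dim genes. Probe sets with a mean at or above the design's median were tested (11313 and 11256) with limma 3.58.1 in R 4.3.3 (lmFit, eBayes with trend), Benjamini-Hochberg adjusted within each design over all of them, at a threshold of 0.05. The first fit compared CD49+ with CD49- samples without a submission term. The others compared MZ1484 with MZ1468 with CD49 as a covariate, and the CD49 difference between submissions. In the last, MZ1484 has 1 sample per group and its spread is taken from MZ1468. SE is the moderated standard error. The script was tested on simulated data that held no other difference. CD49 changes of 2 on the log2 scale were recovered for 10% (MOE430A) and 9% (MOE430B) of changed probe sets, and changes of 4 for 48% and 36%. The simulated spread was that left after fitting CD49 group and submission. The reported CD49 fit kept submission differences in its residual spread, so these CD49 shares can overstate its recovery. For the submission, changes of 2 were recovered for 4% and 0%, and changes of 4 for 12% and 0%. A gene that was not called may therefore still differ.

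Replicate numbers follow accession order and pair nothing. Symbols came from the platform annotation. For 100 probe sets on both designs, MOE430B signals ran higher by a median of 3.14 (log2), so the choice of the probe set with the highest mean favours that design. Where every array of a group read a gene at or under its background bound, the fold is given as "at least". The fold sets the mean log2 signal of the bright group against the higher of bound and signal in the dim group. Precision is limited by the number of arrays.

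Values in every sample are given for the 5 members with the smallest p in each direction of both comparisons, the member with the highest mean in each role list, and Ran, Rangap1, Rcc1, Ranbp1, Kpnb1, Cse1l, Xpo1, Kpna2, Nup98, Nup153 and Nxf1. Other members are named as examples, chosen after their values were seen. The members, lists and tests were chosen with earlier results of these data known, including the split between submissions, which is therefore no independent support. Promoters are from RefSeq (GRCm38.p6), searched for 4 motifs. Alternatives were other pseudocounts, filters, scalings, variance models, probe set choices, a submission block, the MZ1468 samples alone, no CD49 term, and leaving out each sample. Alternatives for the difference of the CD49 effect between submissions were chosen after the data were seen.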

Additional observations from a re-analysis of the deposited data

Results flagged for a closer look

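Nup98 in CD49- 3 stood apart from the other 3 MZ1468 samples, with a log2 level of 8.21 and the nearest sample at 7.53. All arrays were under the background bound at this MOE430B probe set, and a gap of this relative size is met by chance in about 1 in 20 groups, with 29 members looked at. The log2 difference of Ipo8 between CD49+ and CD49- cells was larger in MZ1484 than in MZ1468 by 8.89 (adjusted p = 0.0467, limma interaction), with 1 sample per group in MZ1484 and the CD49- one under the bound. The value depends on the pseudocount, and the call was lost in 5 of 7 other settings, without the filter among them (adjusted p = 0.0819).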

How the results depend on the processing

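The CD49 comparison gave 0 called members under all 17 alternatives. Single CD49 differences changed sign without passing the threshold: with 1 sample left out, Ipo8 ranged from -0.33 to 2.70, Ran from -0.0099 to 0.24 and Nup85 from -0.0548 to 2.36 (lowest without CD49- replicate 1), and Kpna3 from -2.40 to 0.10 (highest without CD49+ replicate 1). In the MZ1468 samples alone, Xpo7 was 0.16, Kpna3 0.42 and Ipo8 -1.29. For MZ1484 minus MZ1468, lower calls ranged from 0 to 7 and higher calls from 0 to 1 when 1 sample was left out, and the median over the tested members from -1.64 to -0.69 (the latter without CD49+ replicate 1). Leaving out a replicate 1 leaves 1 MZ1484 sample, whose spread is taken from the others. The median was -1.03 with the pseudocount at the median signal, -0.79 without the filter, -0.78 in the top 25% by signal, -0.74 after quantile normalization and -0.17 after median centring. Higher calls were 0 without the filter, 0 without the mean-variance trend and 3 after median centring (Kpnb1, Nxf1 and Ran), and lower calls stayed between 5 and 9 in all settings that kept every sample. Among the 6 lower calls 5 were kept after both scalings and without the filter, Cse1l being lost each time. Single differences changed sign for Nup62 (-0.31 after quantile normalization, -0.46 with the MOE430A probe set preferred, -0.24 to 0.83 with 1 sample left out, lowest without CD49+ replicate 1), Xpo1 (1.16 after median centring, -0.64 to 0.19 with 1 left out, highest without CD49+ replicate 1), Ran (1.16 after median centring), Ipo11 (-0.79 with the MOE430A probe set) and Kpnb1 (-2.0003 as the mean over its probe sets). The cause of these changes was not tested. Over all genes, lower and higher calls were 397 and 83, 325 and 105 after quantile normalization, and 236 and 1141 after median centring, which moved the median of all genes from -0.21 to 0.36. Without the filter 192 and 30 genes were called. For the difference of the CD49 effect between submissions, 7 alternatives were chosen after the data were seen. No member was called (0) without the filter, with the pseudocount at the median signal, after quantile normalization or without the mean-variance trend, where the adjusted p of Ipo8 was 0.0819, 0.0636, 0.0634 and 0.107. With signals raised to the bound, Ipo9 was called and Ipo8 was not (adjusted p of Ipo8 = 0.0667, limma). No paired analysis was possible because the replicate numbers follow accession order and tie no samples together. With the submission as a block, 0 members were called for CD49. The CD49 median ranged from -0.77 to 0.19 with 1 sample left out and was 0.16 after median centring.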
